A study of Homo sapiens with 4 samples.

Results

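Kinesin motor genes were followed in KYSE410 cells, an established cell line of a squamous cell carcinoma of the human esophagus, that were left untreated or were given YM155, a small molecule introduced as a suppressor of survivin expression. The members were all probe sets of the array whose annotation gave exactly 1 gene symbol beginning with KIF or KIFC and a number. There were 91 such probe sets of 41091 with 1 symbol, and they named 45 genes of 19775. Of these, 41 were motor genes, read by 85 probe sets, and 4 were antisense transcripts, read by the other 6. The motor genes were divided by known function into 12 mitotic kinesins, 15 transport kinesins and 14 others, and YM155 was compared with untreated in each class.

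Total RNA was hybridised to Affymetrix 3' expression arrays. The untreated group had 2 arrays, and the YM155 group had 2 arrays of cells exposed to 20 nM for 6 h. No other cell line, genotype or agent entered, and all cells grew in RPMI with fetal bovine serum. One protocol field names cisplatin, but the treatment labels name YM155, which is followed here. Nothing in the labels says whether replicates came from separate cultures, so the p-values reflect array-to-array spread that may be technical only.

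Kinesins are ATP-driven motors that move along microtubules or change the dynamics of microtubule ends. Mitotic kinesins build the spindle, align chromosomes and complete cytokinesis, and many of their genes are transcribed mainly in G2 and M phase. Transport kinesins carry vesicles, organelles and ciliary cargo through all phases of the cycle, and several are used mostly by neurons. KIF20A has a direct link to survivin: it moves the chromosomal passenger complex, of which survivin (BIRC5) is a subunit, from centromeres to the spindle midzone at anaphase.

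Promoter windows are shown first, and the motif letters were matched in sequence alone. The windows printed were chosen by expression differences, and the classes with earlier results of these data known. Genes of G2 and M phase often carry a cell cycle genes homology region (CHR), bound by complexes built on MuvB such as DREAM, and CCAAT boxes, bound by NF-Y. The windows are RefSeq promoters of build GRCh38.p14, from 250 bases before to 50 bases after the annotated gene start, printed 5′ to 3′ on the gene's strand. KIF20A, KIF2C and KIF18A were the mitotic kinesins with the most negative difference after YM155, and KIF1A was the transport kinesin with the largest positive one. KIFC1 and KIF11 were added after their values were seen, as CHR-bearing genes with a negative and a positive difference. Capitals mark TTTGAA with its reverse complement TTCAAA and the self-complementary TTCGAA, which are CHR letters, the self-complementary variant TTTAAA, and the CCAAT box as CCAAT or, on the other strand, ATTGG. These motifs share no bases in the windows shown. The windows lie at chr5:138178862-138179161 (+), chr1:44739587-44739886 (+), chr11:28108107-28108406 (-), chr6:33391573-33391872 (+), chr10:92592880-92593179 (+) and chr2:240821354-240821653 (-). For KIF1A the first of 3 RefSeq windows is shown.
KIF20A: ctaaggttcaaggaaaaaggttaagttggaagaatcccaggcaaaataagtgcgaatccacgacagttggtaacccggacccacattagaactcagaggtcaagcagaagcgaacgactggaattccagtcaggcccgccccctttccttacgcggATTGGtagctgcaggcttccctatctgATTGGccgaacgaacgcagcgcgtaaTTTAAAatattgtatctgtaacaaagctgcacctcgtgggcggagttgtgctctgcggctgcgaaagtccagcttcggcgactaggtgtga
KIF2C: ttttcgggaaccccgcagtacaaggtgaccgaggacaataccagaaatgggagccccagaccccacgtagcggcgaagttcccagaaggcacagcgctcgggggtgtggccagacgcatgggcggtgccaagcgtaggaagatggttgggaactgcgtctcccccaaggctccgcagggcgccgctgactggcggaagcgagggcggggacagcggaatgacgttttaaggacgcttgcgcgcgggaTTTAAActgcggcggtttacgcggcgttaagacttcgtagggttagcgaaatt
KIF18A: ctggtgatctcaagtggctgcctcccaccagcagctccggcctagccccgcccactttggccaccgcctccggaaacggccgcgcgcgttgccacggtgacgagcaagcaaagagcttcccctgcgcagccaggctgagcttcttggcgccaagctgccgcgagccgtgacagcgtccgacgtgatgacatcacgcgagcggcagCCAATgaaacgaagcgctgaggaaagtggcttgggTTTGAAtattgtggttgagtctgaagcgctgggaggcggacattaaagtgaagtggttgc
KIFC1: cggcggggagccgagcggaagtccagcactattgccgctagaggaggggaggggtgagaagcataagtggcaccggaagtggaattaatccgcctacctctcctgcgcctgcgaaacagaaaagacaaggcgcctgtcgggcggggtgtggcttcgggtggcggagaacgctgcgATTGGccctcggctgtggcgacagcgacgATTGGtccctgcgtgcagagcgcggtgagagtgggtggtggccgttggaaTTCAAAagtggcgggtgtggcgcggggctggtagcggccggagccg
KIF11: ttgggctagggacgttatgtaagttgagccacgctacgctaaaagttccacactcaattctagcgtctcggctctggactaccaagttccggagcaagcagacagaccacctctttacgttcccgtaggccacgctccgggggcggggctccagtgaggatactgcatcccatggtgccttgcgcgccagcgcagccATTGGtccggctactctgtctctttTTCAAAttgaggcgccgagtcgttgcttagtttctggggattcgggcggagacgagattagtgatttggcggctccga
KIF1A: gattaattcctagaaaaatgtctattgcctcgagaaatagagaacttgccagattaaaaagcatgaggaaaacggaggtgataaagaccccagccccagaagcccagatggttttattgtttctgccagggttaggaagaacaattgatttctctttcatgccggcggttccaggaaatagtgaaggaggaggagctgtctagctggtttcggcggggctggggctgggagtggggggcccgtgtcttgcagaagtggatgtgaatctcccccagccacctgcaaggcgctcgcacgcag

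RefSeq windows were on hand for 13 mitotic, 11 transport and 10 other kinesins; KIF5A, KIF13B, KIFC2 and KIFC3 among the transport kinesins were not searched. CHR letters were found in the windows of 11 of 13 mitotic kinesins with a RefSeq window, KIF4B included, which had no probe set here. By window this was 12 of 14, or 85.7%, beside 16.4% of all 35116 windows of the same length. Among transport kinesins 1 of 16 windows (6.2%), that of KIF5B, held them, and among the other kinesins 1 of 13 (7.7%), that of KIF24. These shares depend on how genes were placed. The windows of KIF2A and KIF2B, placed among the others, held no CHR letters, and counting either as mitotic would lower the mitotic share. In mitotic kinesins the matches began between positions −55 and 31 from the start, apart from a second, overlapping window of KIF22 that reads the same match. CCAAT box letters stood in 78.6% of mitotic, 31.2% of transport and 34.6% of all windows. KIF20A and KIF2C held none of the CHR letters. Both held TTTAAA, a variant that was searched for only after these windows had been read, at positions −41 and −3. That variant was in 12.2% of all windows. These are matches of letters, not shown binding sites, and KIF11, whose difference was positive, carries them too.

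**Figure D1:**
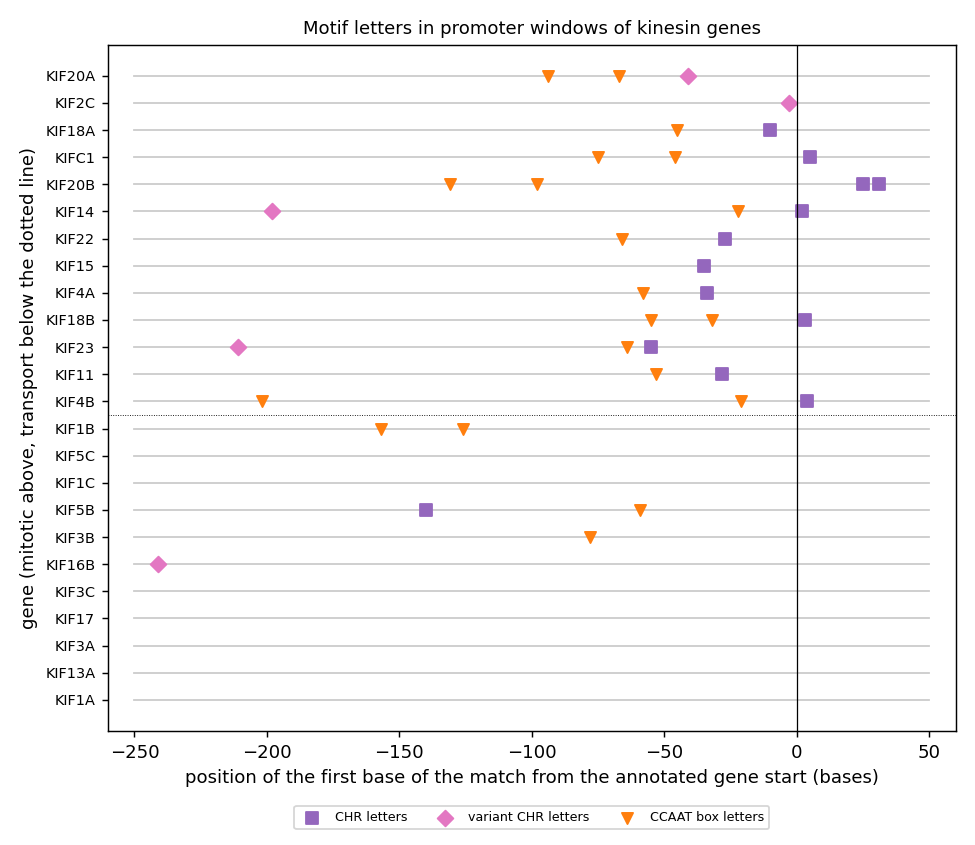
Positions of CHR letters (squares), the variant TTTAAA (diamonds) and CCAAT box letters (triangles) in the first RefSeq promoter window of each mitotic kinesin gene (above the dotted line) and transport kinesin gene (below it), in bases from the annotated start. CHR letters gather near the start in 11 of 13 mitotic genes, and of the 11 transport genes searched KIF5B alone has them, at position −140.

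The deposited values were intensities on a linear scale, of which log2 was taken. All levels below are log2 intensities of 1 probe set, and all differences are YM155 minus untreated on that scale. A probe set's brightness depends on its probes, so levels are not compared between genes. A 2-fold gap or more separated the untreated arrays at 1690 probe sets and the YM155 arrays at 56, out of 32768, so the class medians, and members for which the choice of untreated array mattered most, are also given against each untreated array. The ACTB 3' to 5' log2 difference, a sign of RNA integrity, was 2.72 and 2.18 in the untreated and 2.10 and 2.95 in the YM155 arrays. That of GAPDH was smaller, 0.04 and 0.04 in the untreated and 0.03 and 0.21 in the YM155 arrays. The part of RNA integrity in the results was not tested. Of 8 squamous epithelial markers listed, 5 had a probe set annotated with that symbol alone, and all 5 were above the brightness limit. Their summed intensity ran from 12610 to 17707 in untreated and from 20141 to 20795 in YM155 arrays. Of 5 leukocyte markers listed, 4 had such a probe set and 1 was above the limit (summed intensity 30.5 to 33.6 and 32.4 to 34.5). Above it were also 2 of 4 endothelial markers (43.9 to 48.9 and 45.1 to 47.5), 3 of 6 fibroblast markers (123 to 132 and 119 to 135) and 5 of 5 neuronal markers (290 to 372 and 316 to 343).

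Probe sets were kept where their mean log2 intensity reached the 40th percentile, which was 3.32, and the brightest probe set stood for its gene. This left 36 of the 41 motor genes: all 12 mitotic, all 15 transport and 9 of 14 others. KIF6, KIF21B, KIF24, KIF27 and KIF2B lay below the limit in all their probe sets, and so did KIF1C-AS1 and KIF23-AS1. Limma's test called 0 of 36 motor genes higher and 0 lower (threshold 0.05 on the adjusted p), as it called 0% of all 14043 genes tested in each direction. At an unadjusted p under 0.05 it gave 6 motor genes lower, beside 7.48% of all genes, and 1 higher, beside 5.23%. The arrays of the groups did not overlap for 21 of the 36, beside 44.9% of all genes. None of the differences below therefore passed the threshold, and they are given as values.

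Most mitotic kinesins had lower values after YM155. Of 12 measured, 11 had negative differences, beside 52.9% of all genes, and the median was −0.51 log2, beside −0.02 over all genes. Both YM155 arrays lay below both untreated arrays for 9 of the 12, beside 25.6% of all genes. For 5 the unadjusted p was under 0.05: KIF18A, KIF20B, KIF2C, KIF22 and KIF15. The limma adjusted p ran from 0.185 to 0.985. In bulk RNA, fewer cells in mitosis and less of the transcript per mitotic cell cannot be told apart.

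The untreated arrays were not alike in this class. Untreated replicate 2 lay above replicate 1 for 10 of the 12 genes, by 0.21 in median. Over all genes it did so for 6308 of 14043, with a median of −0.04. The YM155 mean lay below untreated replicate 1 for 10 of the 12 (median −0.34) and below untreated replicate 2 for 11 (median −0.63). Over all 14043 genes these counts were 8171 (median −0.05) and 6879 (median 0.01). Without untreated replicate 1, limma called KIF20A, KIF2C, KIFC1, KIF14 and KIF18A lower (adjusted p = 0.0407, 0.0407, 0.0407, 0.0444 and 0.0452). That fit called 3.71% of all genes lower and 4.3% higher, and it assumes that the lone untreated array varies like the YM155 arrays. It called no motor gene higher, and leaving out any other array called 0 motor genes.

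**Figure D2:**
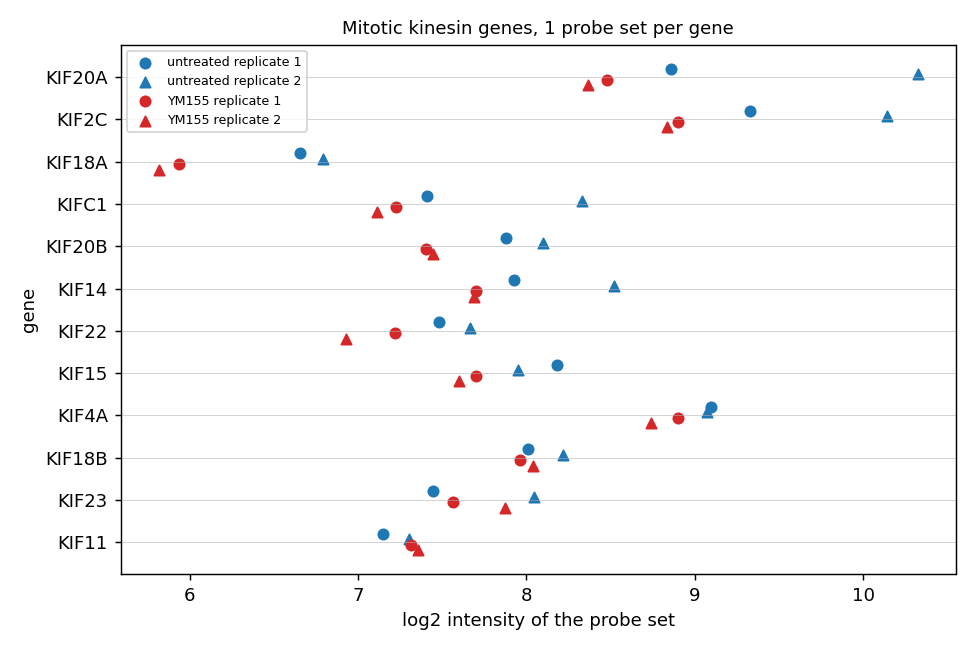
Log2 intensity of the 12 mitotic kinesin genes in each array (blue untreated, red YM155; circles replicate 1, triangles replicate 2), ordered by difference. The red points lie left of both blue points for 9 genes. Untreated replicate 2 stands far to the right of untreated replicate 1 for KIF20A, KIF2C, KIFC1, KIF23 and KIF14, and for KIF23 the red points lie between them.

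Among motors of chromosome movement, KIF18A had the smallest p of all kinesins. It dampens the growth of kinetochore microtubules so that chromosomes align at the spindle equator. Its levels were 6.66 and 6.79 in the untreated and 5.94 and 5.82 in the YM155 arrays, a difference of −0.85 ± 0.13 (SE; n = 2 per group; limma adjusted p = 0.185), or 1.80-fold lower. Both groups were tight, and the YM155 mean stood at −0.78 and −0.92 from the untreated arrays. Its p ranked 140 among 14043 genes. KIF18B, its nearest relative, which shortens astral microtubules, stood at 8.01 and 8.22 in the untreated and 7.96 and 8.04 in the YM155 arrays. Those arrays overlapped, and the difference was −0.11 ± 0.14 (SE), with a 95% interval from −0.48 to 0.26.

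KIF2C, or MCAK, a centromeric depolymerase that corrects faulty kinetochore attachments, was at 9.33 and 10.14 in the untreated and 8.90 and 8.83 in the YM155 arrays. Both untreated arrays were higher, the second by 0.82 more than the first, and the difference was −0.87 ± 0.29 (SE; adjusted p = 0.348), −0.46 from untreated replicate 1 and −1.28 from replicate 2. Its other probe set read 7.52 and 8.33 against 7.11 and 6.73, a difference of −1.01. KIF22, or Kid, which binds chromosome arms and pushes them away from the poles, was at 7.48 and 7.66 in the untreated and 7.22 and 6.93 in the YM155 arrays. The groups did not overlap, with −0.50 ± 0.16 (SE; adjusted p = 0.343), −0.41 and −0.59 from the untreated arrays, and a dimmer probe set gave −0.69. KIF4A, a chromokinesin that also works with PRC1 at the midzone, was at 9.10 and 9.07 in the untreated and 8.90 and 8.74 in the YM155 arrays. Its difference was smaller, −0.26 ± 0.13 (SE; adjusted p = 0.50), and did not depend on which untreated array was used (−0.28 and −0.25).

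Motors that set up the bipolar spindle had differences of both signs. KIF11, or Eg5, slides antiparallel microtubules apart and is the target of several anti-mitotic compounds. It was the exception of the class, at 7.15 and 7.30 in the untreated and 7.31 and 7.35 in the YM155 arrays. The YM155 arrays were both higher but by little: 0.11 ± 0.13 (SE; adjusted p = 0.792), with a 95% interval from −0.24 to 0.45. KIF15, which supports bipolarity beside KIF11, was at 8.18 and 7.95 in the untreated and 7.70 and 7.60 in the YM155 arrays, a difference of −0.42 ± 0.15 (SE; adjusted p = 0.355). Unlike most of the class, KIF15 was higher in untreated replicate 1 than in replicate 2, with differences of −0.53 and −0.31 from them. KIFC1, a minus-end motor that focuses spindle poles and clusters extra centrosomes, was at 7.41 and 8.33 in the untreated and 7.23 and 7.11 in the YM155 arrays. Its difference of −0.70 ± 0.33 (SE; adjusted p = 0.471) was −0.24 from untreated replicate 1 and −1.16 from replicate 2.

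Of the motors of the midzone and cytokinesis, KIF20A had the largest difference of all kinesins and the widest spread. It was at 8.86 and 10.32 in the untreated and 8.48 and 8.37 in the YM155 arrays. The YM155 arrays were lowest, but the untreated arrays were 1.47 apart, more than the difference of −1.17 ± 0.49 (SE; adjusted p = 0.433). The difference was −0.43 from untreated replicate 1 and −1.90 from replicate 2. KIF20B, a related motor needed late in cytokinesis, was steadier, at 7.88 and 8.10 in the untreated and 7.41 and 7.44 in the YM155 arrays (−0.57 ± 0.14 SE; adjusted p = 0.264), or −0.46 and −0.68 from the untreated arrays.

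KIF14, which recruits citron kinase to the midbody, was at 7.93 and 8.52 in the untreated and 7.70 and 7.69 in the YM155 arrays. Its difference was −0.53 ± 0.23 (SE; adjusted p = 0.44), −0.23 from untreated replicate 1 and −0.82 from replicate 2. Its second probe set gave −0.67. KIF23, or MKLP1, which forms centralspindlin with RACGAP1, was at 7.44 and 8.04 in the untreated and 7.56 and 7.87 in the YM155 arrays. The YM155 arrays lay between the untreated ones, the difference was −0.03 ± 0.25 (SE; adjusted p = 0.985), and its sign turned without untreated replicate 2 (0.27). A much dimmer probe set of KIF23, near the brightness limit, gave −0.46.

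Transport kinesins had small differences in both directions. Of 15 measured, 9 had positive and 6 negative differences, with a median of 0.06. None reached 0.5 in size in its brightest probe set, beside 12.6% of all genes and 6 of 12 mitotic kinesins. Dimmer probe sets of KIF1B (0.70) and KIF3C (−0.63) did. The YM155 arrays lay above both untreated arrays for 5 genes, beside 19.3% of all genes, and below them for 2, beside 25.6%. The median was −0.03 from untreated replicate 1 and 0.12 from replicate 2, so it had no settled sign. Limma's adjusted p ran from 0.322 to 0.995.

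**Figure D3:**
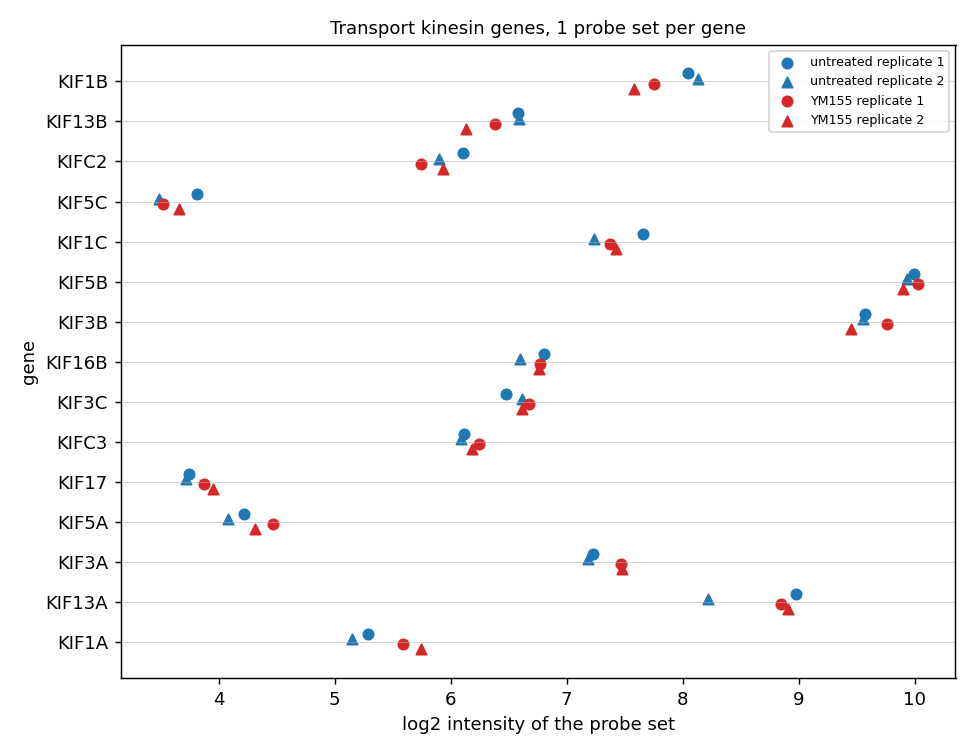
Log2 intensity of the 15 transport kinesin genes in each array (blue untreated, red YM155; circles replicate 1, triangles replicate 2), ordered by difference. The arrays of the groups overlap for 8 genes, and KIF1A and KIF1B show the widest separation without overlap in opposite directions.

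The kinesin-3 motors KIF1A and KIF1B stood at the ends of the class. KIF1A, a carrier of synaptic vesicle precursors in neurons, was at 5.29 and 5.15 in the untreated and 5.59 and 5.74 in the YM155 arrays. Both YM155 arrays were higher, by 0.45 ± 0.14 (SE; adjusted p = 0.322); its other probe sets were below the brightness limit. KIF1B, which carries mitochondria and synaptic vesicle precursors, was at 8.05 and 8.13 in the untreated and 7.75 and 7.58 in the YM155 arrays, −0.43 ± 0.14 (SE; unadjusted p = 0.0287, not past the limma threshold). Its other probe sets above the brightness limit went the opposite way. One gave 7.13 and 6.04 in the untreated and 7.17 and 7.40 in the YM155 arrays (0.70), and another gave 0.38, so the gene has no settled direction. In both, untreated replicate 2 was lowest.

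KIF1C, a motor of vesicles and integrins, likewise gave −0.05 ± 0.18 (SE) in its brightest probe set and 0.43 in another. KIF13A, which moves recycling endosomes, was at 8.98 and 8.22 in the untreated and 8.85 and 8.91 in the YM155 arrays. Only untreated replicate 2 stood apart there, and the difference of 0.28 ± 0.28 (SE) became −0.10 without it. KIF13B, a relative that works in membrane traffic, was at 6.58 and 6.59 in the untreated and 6.38 and 6.13 in the YM155 arrays (−0.33 ± 0.15 SE; adjusted p = 0.447). KIF16B, a motor of early endosomes, had overlapping arrays and 0.06 ± 0.14 (SE), with −0.43 from its dimmer probe set.

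The kinesin-1 heavy chains, the main carriers of cargo bound through light chains, had small differences where bright. KIF5B, the form of most tissues, was at 10.00 and 9.94 in the untreated and 10.03 and 9.90 in the YM155 arrays. The groups overlapped, and the difference of −0.01 ± 0.13 (SE) had a 95% interval from −0.34 to 0.33. Its other probe sets gave 0.03 and 0.17. The neuronal forms KIF5A (0.24 ± 0.14 SE) and KIF5C (−0.06 ± 0.17 SE) were dim, with all values of their brightest probe sets between 3.48 and 4.46 log2. A dimmer probe set of KIF5A gave 0.16.

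Among the kinesin-2 subunits, which drive transport into cilia, KIF3A was at 7.23 and 7.18 in the untreated and 7.46 and 7.47 in the YM155 arrays. This was a tight separation of 0.27 ± 0.12 (SE; adjusted p = 0.464), but its other probe set gave −0.03. KIF3B, the partner of KIF3A, was at 9.58 and 9.55 in the untreated and 9.76 and 9.45 in the YM155 arrays, which enclosed the untreated values (0.04 ± 0.16 SE). KIF3C gave 0.09 ± 0.13 (SE) in its brightest probe set and −0.63 in another, which read 5.61 and 6.24 in the untreated and 5.31 and 5.28 in the YM155 arrays. KIF17, a homodimeric kinesin-2, was dim, at 3.74 and 3.72 in the untreated and 3.87 and 3.95 in the YM155 arrays.

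The minus-end motors outside mitosis had small differences. KIFC3, which works at adherens junctions of epithelial cells, was at 6.11 and 6.09 in the untreated and 6.24 and 6.18 in the YM155 arrays (0.11 ± 0.12 SE). KIFC2 had overlapping arrays and −0.16 ± 0.15 (SE), with 0.36 from its other probe set.

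The remaining 9 measured kinesins regulate microtubule ends, act in cilia or have less defined roles. They had 4 negative and 5 positive differences, with a median of 0.09. KIF9, a motor of motile cilia, stood highest. It was at 9.08 and 9.55 in the untreated and 9.65 and 9.58 in the YM155 arrays, 0.30 ± 0.20 (SE; adjusted p = 0.602), and all 4 of its probe sets were positive, from 0.30 to 0.50. All but the dimmest of these carry the _x_at suffix, which marks probes that may bind other transcripts. The dimmest, without that suffix, gave 0.50. The YM155 mean of the brightest was only 0.06 above untreated replicate 2. KIF2A, a depolymerase of spindle poles and neurites, was at 8.30 and 8.01 in the untreated and 7.995 and 7.89 in the YM155 arrays (−0.22 ± 0.16 SE). Its dimmer probe set gave 0.01. As it acts at spindle poles too, its place outside the mitotic class was a choice. Counted as mitotic, it would be a member of that class with probe sets of both signs. KIF21A, which restrains microtubule growth, was at 7.72 and 7.74 in the untreated and 7.86 and 7.87 in the YM155 arrays, a gap of 0.14 ± 0.12 (SE) with no overlap, and −0.12 in its other probe set. KIF7, a ciliary regulator of Hedgehog signalling, overlapped at −0.07 ± 0.24 (SE). KIF12, KIF19, KIF25, KIF26A and KIF26B were dim. Their brightest probe sets had all values between 3.53 and 4.61 log2 and differences from −0.13 to 0.21. Dimmer probe sets above the limit had the opposite sign to the brightest, at 0.13 and 0.30 for KIF26B and −0.11 for KIF26A. The antisense transcripts KIF9-AS1 (−0.07 ± 0.16 SE) and KIF25-AS1 (0.14 ± 0.14 SE), which encode no motor, were dim too and overlapped.

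**Figure D4:**
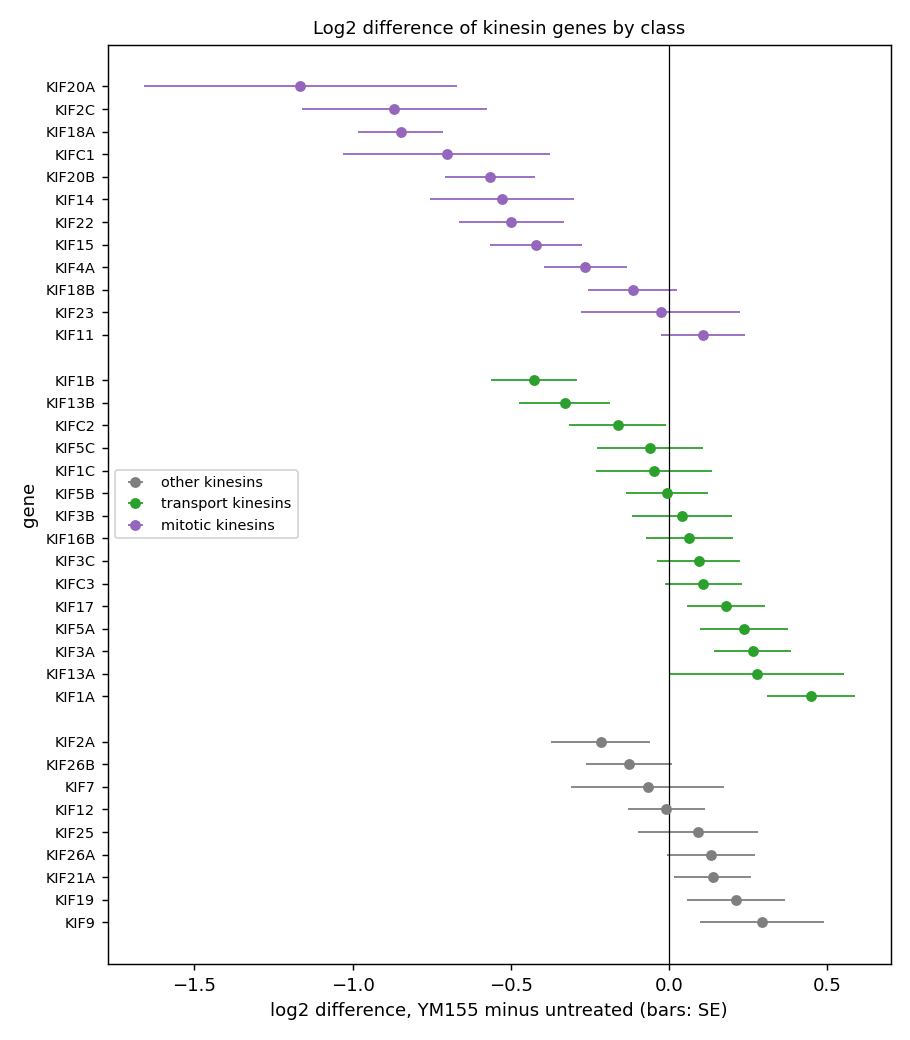
Log2 difference (YM155 minus untreated) with its SE from limma for the 36 measured kinesin genes, by class. Mitotic kinesins run from −1.17 to 0.11, transport kinesins from −0.43 to 0.45 and the others from −0.22 to 0.30.

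Mitotic and transport kinesins were set side by side within each array. Only the change of this contrast between arrays is read, since its level depends on probe brightness. The median of the mitotic genes was 7.90 and 8.16 in the untreated and 7.63 and 7.64 in the YM155 arrays, and that of the transport genes 6.58 and 6.60 in the untreated and 6.67 and 6.61 in the YM155 arrays. The mitotic less the transport median was therefore 1.32 and 1.56 in the untreated and 0.96 and 1.03 in the YM155 arrays. In the untreated group it averaged 1.44 ± 0.17 (SD, n = 2). In the YM155 group it averaged 0.99 ± 0.05 (SD, n = 2), a difference of −0.45. The values of the groups did not overlap. The median of a class can fall on different genes in different arrays, so each gene was also centred on its own mean over the 4 arrays, an alternative added after the data were seen. The contrast was then −0.04 and 0.47 in the untreated and −0.27 and −0.29 in the YM155 arrays, a difference of −0.50. The untreated arrays lay about as far apart from each other as this difference. The centred contrast was not computed with arrays left out. The contrast was given no test, as the members were chosen with earlier results known. Without centring, the difference was −0.57 without untreated replicate 1 and −0.33 without untreated replicate 2.

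Genes read by several probe sets allowed a check within the gene. All 4 mitotic kinesins with several probe sets above the limit (KIF2C, KIF14, KIF22 and KIF23) had negative differences in each. Of 10 such transport kinesins, 7 had probe sets of both signs, as had 4 of 5 others, beside 46.9% of all 6978 such genes. Over probe sets above the limit, 15 of 16 mitotic and 9 of 30 transport probe sets were negative, beside 52.8% of the 26759 of all genes tested. Probe sets of the same gene were read on the same arrays, so their signs are not independent. The brightest probe set of KIF23 counted as negative at only −0.03, and gave 0.27 without untreated replicate 2.

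**Figure D5:**
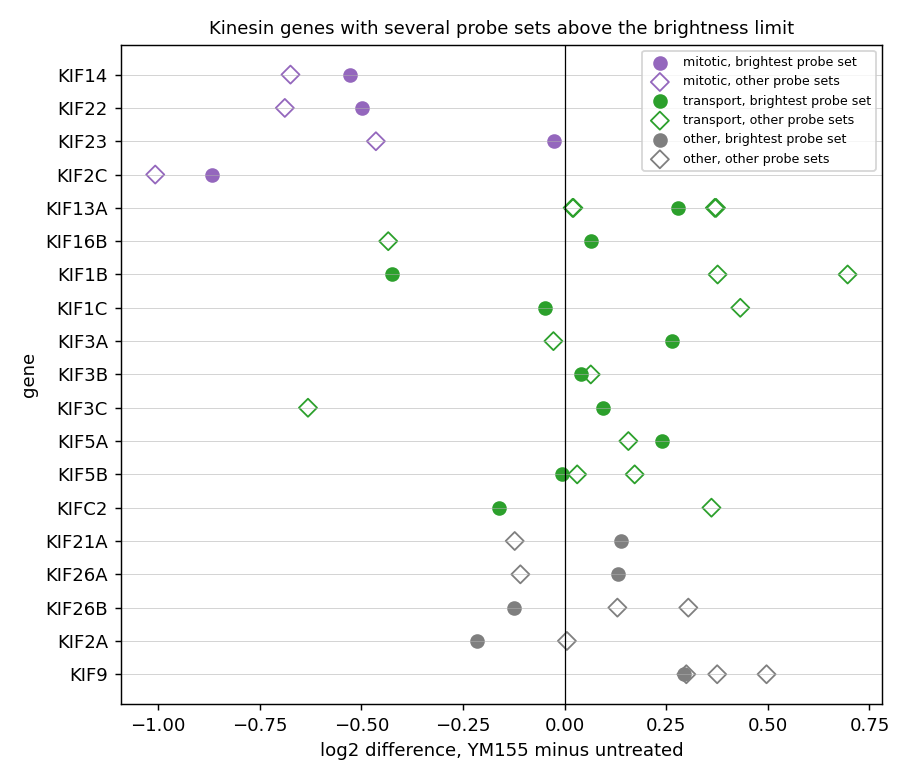
Log2 difference (YM155 minus untreated) of every probe set above the brightness limit, for kinesin genes with several; filled circles are the brightest probe set and open diamonds the others. The mitotic genes lie left of 0 throughout, whereas KIF1B, KIF3C and KIF1C spread to both sides.

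Of 19 partners of mitotic kinesins tested, 17 had negative differences, beside 52.9% of all genes, 0 passed the limma threshold, and the median was −0.35. It was −0.22 from untreated replicate 1, with 14 of 19 negative, and −0.52 from replicate 2, with 18 negative. Untreated replicate 2 lay above replicate 1 for 16 of the 19, by 0.42 in median. Over all 14043 genes, 8171 were negative from replicate 1 and 6879 from replicate 2, and replicate 2 lay above replicate 1 for 6308. CENPE, the kinetochore kinesin whose symbol does not begin with KIF, was at 8.52 and 8.29 in the untreated and 7.90 and 7.75 in the YM155 arrays (−0.58 ± 0.15 SE; adjusted p = 0.27). The YM155 arrays lay below both untreated arrays for 14 of the 19 partners, beside 25.6% of all genes. Among them were AURKA, AURKB and PLK1, kinases that act on these motors. These kinases were named for the size of their differences, so their separation is no result about kinases as a group. Their differences were −0.88 ± 0.23 (SE) for AURKA, −0.66 ± 0.20 for AURKB and −0.63 ± 0.29 for PLK1. That of PLK1 was −0.22 from untreated replicate 1 and −1.04 from replicate 2. TPX2, which targets AURKA and KIF15 to the spindle, stood at −0.73 ± 0.22. BIRC5, whose protein belongs to the complex that KIF20A moves, stood at −0.26 ± 0.18 (SE; adjusted p = 0.615), −0.06 from untreated replicate 1 and −0.46 from replicate 2.

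Regulators of mitotic gene transcription had no common direction: 8 of 15 were negative and 0 passed. LIN37, a MuvB subunit of the complexes that bind CHR elements, was at 7.43 and 7.35 in the untreated and 6.62 and 6.70 in the YM155 arrays (−0.73 ± 0.13 SE; adjusted p = 0.197). CDKN1A, the p21 inhibitor through which p53 represses CHR genes, was at 7.99 and 8.03 in the untreated and 8.88 and 8.95 in the YM155 arrays (0.91 ± 0.12 SE; adjusted p = 0.175). The untreated arrays agreed closely for both genes. RBL1 (0.46 ± 0.38 SE) and RBBP4 (−0.44 ± 0.31 SE) had overlapping arrays.

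Of 18 adaptors and light chains, 10 were negative, with a median of −0.01. The mitochondrial adaptor TRAK1 was at 8.26 and 8.72 in the untreated and 7.70 and 7.77 in the YM155 arrays (−0.75 ± 0.20 SE; adjusted p = 0.27). RHOT1, the mitochondrial receptor of TRAK proteins, was at 9.74 and 9.84 in the untreated and 9.36 and 9.41 in the YM155 arrays (−0.40 ± 0.13 SE). BORCS5, of the complex that couples lysosomes to kinesin, stood at −0.74 ± 0.17 and FEZ2 at −0.30 ± 0.17 (−0.12 and −0.48 from untreated replicates 1 and 2).

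Of 24 dynein and dynactin genes 12 were negative and 12 positive. DYNC1I1, an intermediate chain, stood at −0.61 ± 0.17 (SE), DYNLL1, a light chain, at 0.56 ± 0.13, the adaptor BICD2 at 0.40 ± 0.21 (0.65 and 0.15 from untreated replicates 1 and 2) and the dynactin subunit DCTN5 at 0.37 ± 0.15. Of 14 tubulins 9 were negative, with a median of −0.11, or −0.06 from untreated replicate 1 and −0.23 from replicate 2. They included TUBB at −0.53 ± 0.14 (SE), TUBA4A at −0.68 ± 0.28 (−0.30 and −1.05 from untreated replicates 1 and 2) and TUBG2 at −0.57 ± 0.19. TUBB2A, at 0.84 ± 0.56, had overlapping arrays. In these 3 lists 0 genes passed the limma threshold over all genes.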

How the data were processed

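KYSE410 cells were measured on 4 arrays, grouped by their titles. The authors deposited an RMA intensity for each probe set, per the submitters' processing notes. Which RMA version was run is not given in the sources used here. The intensities were linear (2.42 to 15214), so log2 was taken. RMA sets arrays to a common distribution, so a shift shared by all genes is not measured. Detection calls were not used. Of 54675 probe sets, 62 controls were left out and those below the 40th percentile of mean log2 value dropped; the brightest probe set stood for each gene (14043 genes). YM155 was compared with untreated in R 4.3.3 with limma 3.58.1 (two-sided moderated test from lmFit and eBayes, Benjamini-Hochberg over all genes, threshold 0.05; SE from limma), after the script was tested on simulated data. The number of arrays limits the precision.

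The kinesin members, classes and companion lists were chosen with earlier results of these data known. Named were all kinesin genes, the 4 largest absolute differences of each companion list, CENPE and BIRC5; promoters of 3 mitotic and 1 transport kinesin followed a rule, and those of KIFC1 and KIF11 were added. RefSeq promoter windows (GRCh38.p14) were matched by symbol for 34 kinesin genes, KIF4B included. Alternatives were other brightness filters, probe set rules, normalizations and variance models, the replicate block, and each array left out.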

Additional observations from a re-analysis of the deposited data

How the results depend on the processing

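The titles share replicate numbers, but deviations of same-numbered arrays were uncorrelated over 14043 genes (r = 0.00036), so the numbers were not taken as pairs; with the replicate block limma called 0 genes higher and 0 lower, and 0 kinesins. No other alternative that kept all arrays called a gene. Over the arrays left out, calls ran from 0 to 604 genes higher, 0 to 521 lower and 0 to 5 kinesins lower. The mitotic median ran from −0.63 to −0.34, the transport median from −0.034 to 0.13 and the contrast of the classes from −0.57 to −0.33. With all arrays, the mitotic median stayed between −0.58 and −0.44 over 8 alternatives and the contrast between −0.52 and −0.34 over 9, the centring of each gene included, while the transport median moved to 0.11 with the mean of probe sets, 0.15 without _x_at and _s_at probe sets and 0.12 with a second quantile normalization; the cause was not tested.

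Signs turned for kinesins with small differences or discordant probe sets, none of them called. With the mean of probe sets, KIF1B gave 0.22, KIF1C 0.19, KIF3C −0.27, KIF5B 0.066, KIF16B −0.18, KIFC2 0.10 and KIF26B 0.10. Without _x_at and _s_at probe sets, KIF1C gave 0.43, KIF3C −0.63, KIFC2 0.36, KIF2A 0.0058 and KIF26A −0.11. A second quantile normalization gave 0.0067 for KIF23 and 0.0069 for KIF12, and median centring 0.0028 for KIF5B. With each array left out, KIF23 ran from −0.33 to 0.27, KIF1C from −0.26 to 0.16, KIF3B from −0.11 to 0.19, KIF5B from −0.069 to 0.058, KIF5C from −0.22 to 0.11, KIF13A from −0.097 to 0.66, KIF16B from −0.038 to 0.17, KIF7 from −0.39 to 0.25, KIF12 from −0.025 to 0.0076 and KIF25 from −0.079 to 0.26. Differences near the brightness limit, as for KIF5C and KIF17, are not shown to exceed background.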
